A study of Mus musculus with 8 samples.

Results

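The response of pancreatic alpha cells to forskolin (FSK) was examined in pooled single nucleus RNA-seq profiles of cultured mouse islets. The members are the 4 alpha cell columns of FSK-treated and untreated (CON) islets, 1 pool each for wild type (WT) and for Med14 S983A, out of 54 pooled columns in the deposited table. FSK was compared with CON within each genotype, genes that moved alike in both genotypes were counted, and their differences were set beside those of beta cells. After a filter on low values, 9487 of 17362 genes were kept in alpha cells.

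Med14 S983A islets came from mice carrying a knock-in in every cell, in which a serine of the Mediator scaffold subunit Med14 is an alanine. Islets of both genotypes were left untreated, exposed to FSK, or exposed to the GLP-1 receptor agonist Exendin-4 (Ex-4; 10 nM). Both exposures lasted 16 h, and no dose of FSK on islets was found in the sources used here. Frozen islets were pooled for each condition before nuclei were prepared, and all 8 sublibraries hold nuclei of all 6 conditions, which means that sublibraries do not serve as replicates. There was 1 value for each condition and cell type: no test between conditions could be run, no spread between islet pools is known, and condition cannot be told apart from islet preparation or barcode well.

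Alpha cells secrete glucagon, the hormone that raises blood glucose, and do so in response to amino acids, adrenaline and GIP, several of which act through cAMP. FSK activates adenylyl cyclase directly and so raises cAMP without a receptor. cAMP activates protein kinase A, which phosphorylates CREB and inhibits the kinases that hold CREB coactivators outside the nucleus, while phosphodiesterases degrade cAMP and end the signal.

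Expression is given in counts per 10000 counts of the column (CP10K), with exact Poisson intervals (95%) that cover counting error only. The alpha columns rested on 419293 counts in WT CON, 269394 in WT FSK, 810127 in mutant CON and 785858 in mutant FSK, where 1 count equals 0.0238, 0.0371, 0.0123 and 0.0127 CP10K. Differences are FSK minus CON on the log2(CP10K + 1) scale, and genes past 1.5-fold (0.58 in these units) are called higher or lower. At low levels a true ratio must be above 1.5 to pass. The columns carried the identity their label gives. *Gcg*, the glucagon gene, ranged from 33.8 to 115 CP10K over the 6 alpha columns and from 0.262 to 1.53 over the beta columns. The summed level of 13 beta cell identity genes was between 15.7 and 38.0 CP10K in alpha columns and between 67.8 and 106.7 in beta columns. Markers of macrophages, of acinar and ductal cells, and of endothelial cells summed to at most 0.215, 0.123 and 0.280 CP10K in any alpha column.

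The untreated WT column stood apart from the other columns without FSK. It differed past 1.5-fold from WT Ex-4 at 543 kept genes, from mutant CON at 700 and from mutant Ex-4 at 726, whereas any pair of the latter 3 differed at 4 to 11 genes. The FSK columns of the genotypes differed at 46 genes. The summed level of 8 genes on a list linked to ribosomal RNA, whose reads were not examined here, was 394 and 526 CP10K in WT CON and FSK. In mutant CON and FSK it was 1346 and 514. The part of these features in the differences below was not tested.

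On the log2(CP10K + 1) scale, more genes were higher than lower in both genotypes. In WT alpha cells 127 genes were higher (1.34% of those kept) and 111 lower (1.17%) after FSK. In mutant alpha cells 297 were higher (3.13%) and 84 lower (0.885%). In both genotypes 82 were higher (0.864%), which is 64.6% of the WT calls and 27.6% of the mutant calls, and 7 were lower (0.0738%), which is 6.31% and 8.33%. This balance depended on the scale: with a pseudocount of 0.01 times the median level in place of 1, the genes shared by the genotypes were 568 higher and 599 lower, with 0.1 times the median 462 and 443, and with 1 times the median 151 and 41. In WT alpha cells the calls were then mostly lower (1434 higher and 2823 lower, 1119 and 2511, and 347 and 647). Over all kept genes the median differences were -0.04 (WT) and 0.02 (mutant). Over the 82 higher genes, as a description of a set chosen on these values, they were 0.87 and 1.07. The counting intervals of FSK and CON were apart in both genotypes for all 82 higher and all 7 lower genes. The FSK and CON columns also chose these genes, so their separation is a description and no added support. Both FSK columns lay above all 4 other alpha columns, the Ex-4 columns included, for all 82 higher genes, and below all 4 for 6 of the 7 lower genes. No share over all kept genes is given for these counts. WT Ex-4 and mutant Ex-4 differed from mutant CON past 1.5-fold at only 7 and 4 kept genes. The Ex-4 columns therefore add little to a choice made on CON, and this too is a description and no added support. Just inside the threshold lay *Ubr4* (0.60 in its smaller genotype) and *Ap1s2* (-0.61), and just outside it *Man1a* (0.58) and *Fmn2* (-0.57).

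**Figure D1:**
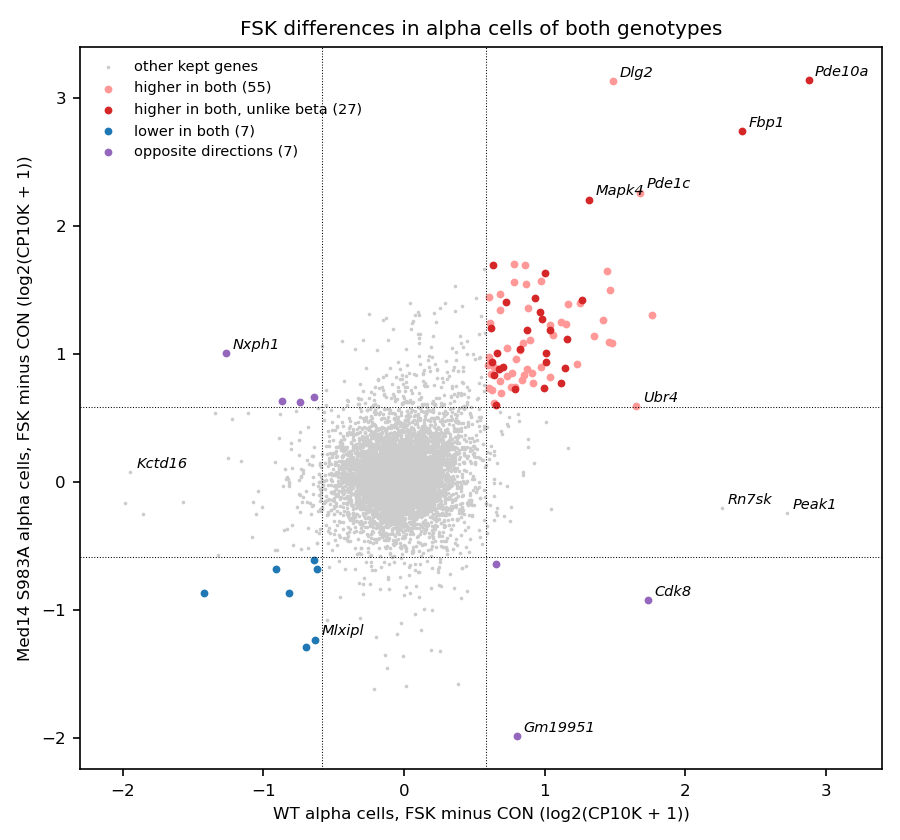
FSK minus CON in alpha cells of WT (horizontal axis) against Med14 S983A (vertical axis), both on the log2(CP10K + 1) scale, for 9487 kept genes, with dotted lines at the 1.5-fold threshold. Genes higher in both genotypes (82) fill the upper right corner, 7 genes lie in the lower left, and *Peak1* and *Rn7sk* lie far to the right with a mutant difference close to 0.

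The promoters of these genes are shown where they hold the cAMP response element (CRE), the CREB binding sequence TGACGTCA, within the 250 bases before the annotated start (GRCm39, GENCODE M39 canonical transcript). Of the 81 higher genes with such a window, 3 (*Sik1*, *Meg3* and *Kctd8*) held the full element on either strand, or 3.70%, against 2.04% of the windows of all kept genes. The shorter site TGACG, which is part of the full element and was searched on both strands, was present in 17 of 81 (21.0%), against 24.3% of all kept genes. The 3 windows with a full element are printed 5′ to 3′ on the gene's strand with TGACGTCA and TGACG in capitals (CGTCA where it lies on the other strand), followed by that of *Irs2*, described below, which holds the shorter site.

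*Sik1* (chr17:32074819-32075068, minus strand): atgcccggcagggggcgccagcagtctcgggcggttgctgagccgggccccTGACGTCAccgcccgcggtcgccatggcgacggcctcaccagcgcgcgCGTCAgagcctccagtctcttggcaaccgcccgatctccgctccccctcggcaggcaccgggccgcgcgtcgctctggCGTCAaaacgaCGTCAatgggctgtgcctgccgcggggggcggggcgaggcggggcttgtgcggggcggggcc
*Meg3* (chr12:109506629-109506878, plus strand): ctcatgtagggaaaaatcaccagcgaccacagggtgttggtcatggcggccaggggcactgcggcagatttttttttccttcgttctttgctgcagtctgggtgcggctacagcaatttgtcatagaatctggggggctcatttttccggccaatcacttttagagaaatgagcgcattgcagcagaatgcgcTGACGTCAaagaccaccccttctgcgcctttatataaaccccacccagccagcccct
*Kctd8* (chr5:69499058-69499307, minus strand): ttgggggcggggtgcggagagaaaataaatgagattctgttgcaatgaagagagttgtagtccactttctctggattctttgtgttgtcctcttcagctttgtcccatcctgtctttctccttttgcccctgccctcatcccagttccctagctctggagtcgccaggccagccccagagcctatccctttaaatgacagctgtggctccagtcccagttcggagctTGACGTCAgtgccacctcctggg
*Irs2* (chr8:11059500-11059749, minus strand): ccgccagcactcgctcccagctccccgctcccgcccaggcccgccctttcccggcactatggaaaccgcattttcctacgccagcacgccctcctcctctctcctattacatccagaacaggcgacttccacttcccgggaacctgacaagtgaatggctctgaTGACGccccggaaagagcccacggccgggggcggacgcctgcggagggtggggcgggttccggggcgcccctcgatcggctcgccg

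The largest difference shared by both genotypes was in a gene that ends the cAMP signal. *Pde10a*, a phosphodiesterase of cAMP and cGMP and a CREB target, was 9.95 CP10K without treatment, 8.13 with Ex-4 and 79.4 with FSK in WT, against 7.47, 7.39 and 73.96 in the mutant. Both FSK columns were far above the other 4, which lay close together. The FSK to CON ratio was 7.99 (7.19 to 8.89) in WT and 9.903 (9.11 to 10.8) in the mutant. *Pde1c*, a phosphodiesterase activated by calcium and calmodulin, was 3.55 CP10K without treatment, 3.12 with Ex-4 and 13.6 with FSK in WT, against 2.46, 2.39 and 15.6 in the mutant. Its differences were 1.68 in WT and 2.26 in the mutant.

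Phosphodiesterases as a group did not move together in both genotypes. Of 12 kept genes of cAMP degradation, *Pde1c* and *Pde10a* were higher in WT, and the mutant added *Pde4d* (0.10 and 1.33) and *Pde8b* (0.24 and 0.81), where the values in parentheses are the WT and mutant differences. *Pde3b*, the isoform that insulin signaling activates, was at -0.17 in WT and 0.53 in the mutant. The list had medians of 0.17 (WT) and 0.37 (mutant), against -0.04 and 0.02 over all kept genes. No gene of cAMP production (10 kept: G protein alpha subunits and adenylyl cyclases) or of protein kinase A, its anchors and EPAC (18 kept) passed 1.5-fold in either genotype. Of all kept genes 1.34% were higher and 1.17% lower in WT, and 3.13% and 0.885% in the mutant. At those shares lists this short, here and below, would hold few calls or none. *Gnas*, the stimulatory G protein subunit, was at -0.33 in WT and 0.01 in the mutant, and *Prkaca*, the main catalytic subunit of protein kinase A, at 0.03 in WT and 0.09 in the mutant.

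CREB and part of its target set were higher. *Creb1* itself was 1.34 CP10K without treatment, 0.598 with Ex-4 and 2.56 with FSK in WT, against 0.679, 0.8696 and 2.303 in the mutant. The 2 FSK columns were the highest of the 6, although WT CON lay above the untreated mutant column. *Sik1*, a kinase that CREB induces and that in turn inhibits CREB coactivators, was 0.119 CP10K without treatment, 0.332 with Ex-4 and 1.11 with FSK in WT, against 0.148, 0.0882 and 0.967 in the mutant. On counts, this was 5 in WT CON and 30 in WT FSK, and 12 and 76 in the mutant.

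*Irs2*, an adaptor of the insulin and IGF1 receptors and a CREB target, was 0.453 CP10K without treatment, 0.6204 with Ex-4 and 2.71 with FSK in WT, against 0.593, 0.466 and 2.51 in the mutant. Its FSK to CON ratio was 5.98 (3.57 to 10.5) in WT and 4.23 (3.07 to 5.93) in the mutant. *Nr4a2*, an orphan nuclear receptor of the immediate early class, was 0.167 CP10K without treatment, 0.155 with Ex-4 and 1.11 with FSK in WT, against 0.235, 0.214 and 1.21 in the mutant. All 3 of *Sik1*, *Irs2* and *Nr4a2* were separated from the other 4 columns in both genotypes.

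Of 14 kept genes on a list of CREB early targets, 4 were higher in both genotypes (*Pde10a*, *Irs2*, *Sik1* and *Nr4a2*), and *Crem*, which encodes repressor isoforms of the CREB family, was higher in the mutant alone (0.28 and 0.61). *Dusp1* (-0.11 and 0.00), *Junb* (0.12 and 0.15), *Per1* (0.16 and 0.03) and *Ppargc1a* (-0.08 and 0.16) did not pass in either, and 9 further members, *Fos* and *Nr4a1* among them, were below the filter. The list had medians of 0.21 and 0.22. Among 12 kept CREB factors and coactivators the median was 0.19 and 0.32, with *Crtc2* at -0.11 in WT and -0.08 in the mutant. Among 10 genes of receptor desensitisation none passed in WT, and *Rgs7* (0.11 and 1.31) and *Rgs17* (0.51 and 1.44), which speed the inactivation of G proteins, were higher in the mutant.

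**Figure D2:**
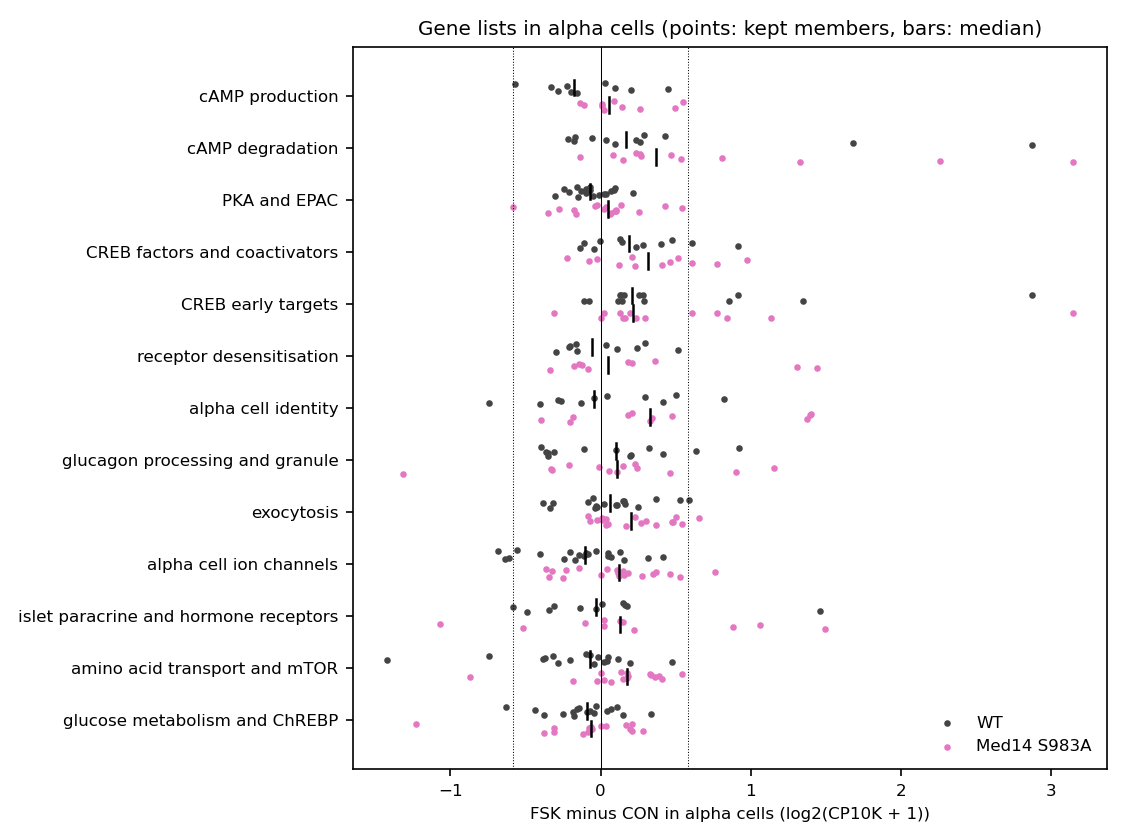
FSK minus CON in alpha cells on the log2(CP10K + 1) scale (horizontal axis) for the kept members of 13 gene lists (vertical axis), with WT in dark grey and Med14 S983A in pink, bars at the median of each list and dotted lines at 1.5-fold. A few single genes lie past the lines while the list medians run between -0.18 and 0.37.

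Single genes of kinase signaling and single receptors were among the 82. On the list of islet paracrine and hormone receptors (11 kept), 1 gene was higher in both genotypes and the medians were -0.03 and 0.13. *Igf1r*, the IGF1 receptor, was 2.22 CP10K without treatment, 1.99 with Ex-4 and 7.87 with FSK in WT, against 1.74, 1.97 and 6.74 in the mutant. *Dusp10*, a phosphatase of stress-activated MAP kinases, was 1.19 CP10K without treatment, 0.842 with Ex-4 and 4.97 with FSK in WT, against 0.691, 0.441 and 4.31 in the mutant. *Mapk4*, an atypical MAP kinase, was 5.41 CP10K without treatment, 2.24 with Ex-4 and 14.997 with FSK in WT, against 2.01, 1.85 and 12.9 in the mutant. In all 3 genes both FSK columns were above the rest, and for *Mapk4* WT CON was also above the other untreated and Ex-4 columns.

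*Il1r1*, the interleukin 1 receptor, was 6.03 CP10K without treatment, 5.23 with Ex-4 and 14.6 with FSK in WT, against 7.54, 5.38 and 19.1 in the mutant. *Oxtr*, the oxytocin receptor, was 1.07 CP10K without treatment, 0.864 with Ex-4 and 2.67 with FSK in WT, against 0.593, 0.492 and 2.28 in the mutant. *Gria3*, an AMPA-type glutamate receptor subunit, had differences of 0.87 in WT and 1.55 in the mutant, and *Gabbr2*, a subunit of the GABA-B receptor, of 1.12 in WT and 1.25 in the mutant. For *Gria3*, WT CON was 13.3 CP10K and mutant CON 5.703, whereas the FSK columns were 25.2 and 18.6.

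Metabolic genes included the second largest shared difference. *Fbp1*, the gluconeogenic enzyme fructose-1,6-bisphosphatase, was 0.477 CP10K without treatment, 0.111 with Ex-4 and 6.83 with FSK in WT, against 0.309, 0.214 and 7.77 in the mutant. Its counts were 20 and 184 in WT CON and FSK and 25 and 611 in the mutant, a ratio of 14.3 (9.01 to 23.99) and 25.2 (16.9 to 39.2). *Fbp2*, the adjacent paralog, chosen after its values were seen and below the filter, had 8 counts in WT FSK and 21 in mutant FSK and 0 in the other 4 alpha columns. It was listed at 0 in every cell type of those 4 conditions, so that no fold can be read. Beta cells had 35 counts in WT FSK and 23 in mutant FSK.

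*Abhd2*, a lipase of the alpha/beta hydrolase family, was 2.003 CP10K without treatment, 1.68 with Ex-4 and 7.02 with FSK in WT, against 1.69, 1.81 and 5.47 in the mutant. *Dlg2*, a synaptic scaffold, was 21.8 CP10K without treatment, 6.62 with Ex-4 and 62.8 with FSK in WT, against 6.26, 5.03 and 62.7 in the mutant. The 2 FSK columns of *Dlg2* were nearly equal, and its larger mutant difference (3.13 against 1.49 in WT) went with a lower mutant CON column.

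For 59 of the 82 higher genes the mutant difference was the larger. No share over all kept genes is given for this count, so it is not read as a trait of the 82. For 66 mutant CON was below WT CON, against 50.5% of all kept genes, although both CON columns were used to choose the 82. The 82 genes were long: the median length was 193003 bases over the 81 with a length, against 37792 for all kept genes. Of them 59 overlapped another protein-coding or long noncoding gene, whose nuclear reads could not be assigned apart here. The share of all kept genes with such an overlap is not given either.

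The remaining higher genes fell into several roles. Those of glycan and lipid synthesis were *Gmds*, *Man2a1*, *C1galt1*, *Tmtc1*, *Sgms1*, *Pitpnc1* and *Pik3c2g*. *Gmds*, which makes the precursor of GDP-fucose, was 3.46 CP10K without treatment, 1.84 with Ex-4 and 7.09 with FSK in WT, against 1.63, 1.41 and 7.53 in the mutant. *Sgms1*, a sphingomyelin synthase, was at 0.60 in WT and 1.45 in the mutant, and *Man2a1*, a Golgi mannosidase, at 0.84 in WT and 0.80 in the mutant. In WT CON *Gmds* and *Sgms1* were above the other 3 columns without FSK.

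Transcription and chromatin genes besides *Creb1* and *Nr4a2* were *Etv1*, *Etv6*, *Rorb* and *Macroh2a2*. *Etv1*, an ETS factor, was 12.04 CP10K without treatment, 4.61 with Ex-4 and 19.9 with FSK in WT, against 3.999, 3.78 and 12.8 in the mutant. *Rorb*, an orphan nuclear receptor, was 0.238 and 0.891 CP10K in WT CON and FSK and 1.37 in mutant FSK, and it was listed at 0 in every cell type of mutant CON, so that its mutant difference cannot be read as a fold. It was the only one of the 82 listed at 0 over a whole CON or FSK condition.

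Adhesion and guidance genes included *Cdh4*, *Ncam2*, *Pcdh15*, *Ptprm*, *Sdk2*, *Itga6*, *Olfm3*, *Luzp2* and *Cntnap5c*. *Cdh4*, R-cadherin, was 1.31 CP10K without treatment, 1.06 with Ex-4 and 3.75 with FSK in WT, against 0.926, 0.832 and 3.38 in the mutant. *Ptprm*, a receptor phosphatase that binds itself on neighbouring cells, was at 1.04 in WT and 1.23 in the mutant. Cell cortex, trafficking and membrane genes included *Septin9*, *Sntg2*, *Frmd5*, *Epb41l4a*, *Tns3*, *Sh3bp4*, *Snx24*, *Pex5l*, *Schip1*, *Baiap2l2*, *Tmem163*, *Tspan15*, *Prom1*, *Ttyh1*, *Fam163a*, *Kctd8*, *Mctp2* and *Neb*. *Septin9*, a filament-forming GTPase, was 3.34 CP10K without treatment, 2.703 with Ex-4 and 8.72 with FSK in WT, against 3.01, 2.79 and 9.53 in the mutant, and *Tmem163*, a zinc transporter, had differences of 1.25 in WT and 1.40 in the mutant.

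Signaling genes that were also higher in both were *Shb*, *Tiam1*, *Ksr2*, *Stk32b*, *Spsb1*, *Pdgfd*, *Diras2*, *Rgs6* and *Arhgap26.1*. *Tiam1*, an exchange factor for Rac, was at 0.70 in WT and 0.90 in the mutant. *Diras2*, a small GTPase, was 0.705 CP10K in WT FSK and 0.802 in mutant FSK, with 0 counts in the other 4 alpha columns, and the limit taken for a count of 0, which is 3 counts, equals 0.0715 CP10K in the WT CON column and 0.0370 in that of mutant CON. *Ubr4*, *Aopep*, *Mthfd1l*, *Slc35f3*, *Macrod2*, *2610035D17Rik* and *Gm379* were also among the 82. *Mapk4*, *Fbp1*, *Dusp10* and *Septin9* were among the 5 genes that passed in both genotypes under all 14 alternative settings.

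**Figure D3:**
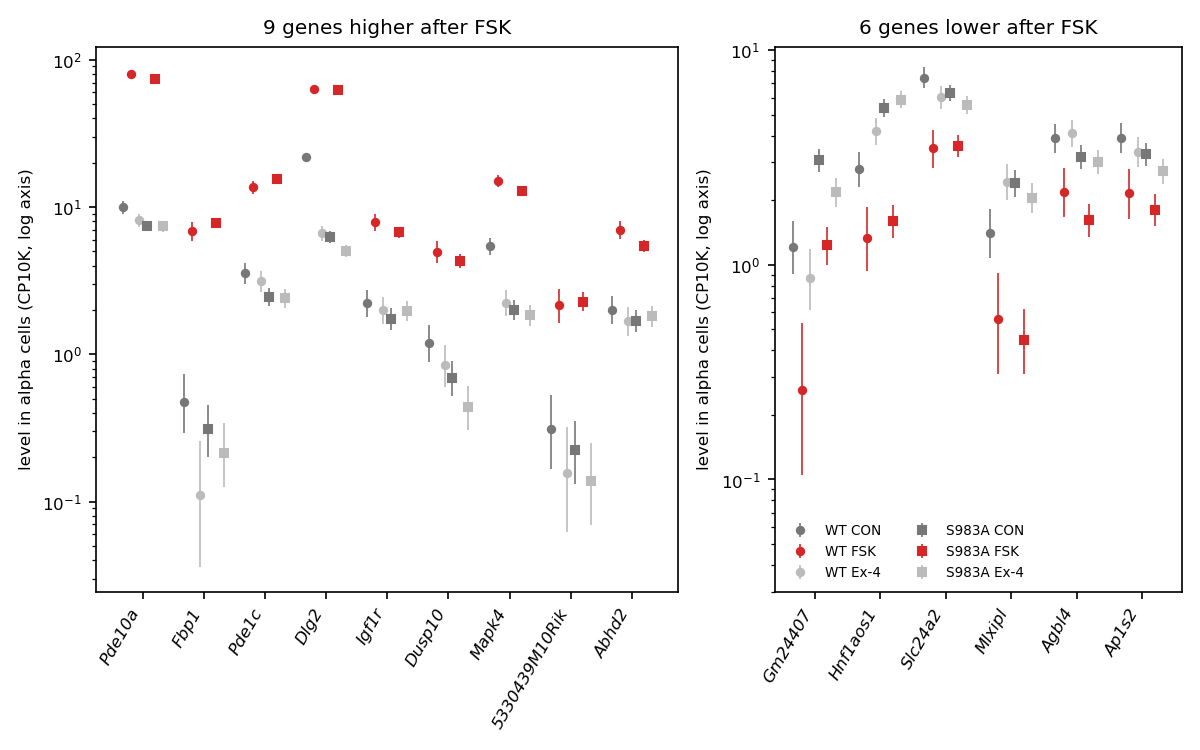
Levels in CP10K on a log axis for 9 higher (left) and 6 lower genes (right) with the largest shared differences, in the 6 alpha cell columns, with WT as circles and Med14 S983A as squares, FSK in red, CON in dark grey and Ex-4 in light grey, and exact Poisson intervals of the counts as bars. Both FSK columns lie above the other 4 for each of the 9 genes, and below them for 5 of the 6, the exception being *Gm24407*.

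Imprinted noncoding RNAs of the *Dlk1*-*Meg3* domain on chromosome 12 were higher together. *Meg3*, *Rian* and *Mirg* are made from the maternal chromosome. *Meg3* was 28.02 CP10K without treatment, 28.8 with Ex-4 and 43.8 with FSK in WT, against 30.5, 30.6 and 50.8 in the mutant. *Rian* (0.83 and 1.03) and *Mirg* (0.69 and 0.69) passed as well. These 3 transcripts lie close together, and how nuclear reads were divided among them is uncertain. *Neat1*, the noncoding RNA that builds paraspeckles, was 2.38 CP10K without treatment, 3.55 with Ex-4 and 8.46 with FSK in WT, against 3.06, 2.94 and 7.63 in the mutant. 

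Among the 7 genes lower in both genotypes were *Mlxipl*, *Slc24a2*, *Agbl4*, *Ap1s2*, *Hnf1aos1* and *Gm24407*. *Mlxipl*, which encodes the glucose-responsive factor ChREBP, was 1.41 CP10K without treatment, 2.44 with Ex-4 and 0.557 with FSK in WT, against 2.39, 2.05 and 0.445 in the mutant. Both FSK columns were below the other 4, on counts of 15 in WT and 35 in the mutant.

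*Txnip*, a ChREBP target, was at -0.44 in WT and -0.31 in the mutant and did not pass 1.5-fold in either genotype. Its level was 0.453 CP10K in WT CON and 0.0742 in WT FSK, and 0.383 and 0.115 in the mutant. The FSK to CON ratio was 0.164 (0.0185 to 0.679) in WT and 0.299 (0.125 to 0.644) in the mutant. At such low levels the scale flattens ratios. Both FSK columns were below the other 4, on counts of 2 in WT and 9 in the mutant. No other gene of the glucose metabolism list (17 kept) passed. *Slc24a2*, a sodium, calcium and potassium exchanger, was at -0.91 in WT and -0.68 in the mutant. On the list of amino acid transport and mTOR signaling, *Slc7a2*, a transporter of arginine, was lower in WT alone (-0.75 and 0.33).

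Beta cells were then compared over the same 9487 genes. Of these, 133 were higher after FSK in beta cells of both genotypes (1.4%) and 26 lower (0.274%). Of the 82 genes higher in alpha cells of both genotypes, 25 also passed in WT beta cells (1.56% of kept genes did so), 42 in mutant beta cells (5.4%), 23 in both and 38 in neither. Their median differences in beta cells were 0.25 (WT) and 0.60 (mutant). In delta cells 23 of the 82 were higher in both genotypes, as were 1.67% of all kept genes. *Igf1r* was one of the genes shared with beta cells (1.86 and 2.53 there), as were *Dusp10* (1.40 and 1.56), *Septin9* (1.10 and 1.08) and *Dlg2* (1.64 and 1.86).

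Genes were called unlike beta cells where the alpha difference exceeded the beta difference by at least 0.58 in each genotype, which held for 27 of the 82 higher genes (0.285% of kept genes) and for 1 of the 7 lower genes (0.0105%). For 21 of the 27 the mean level in CON was higher in alpha than in beta cells. No share over all kept genes is given for this count. The scale that chose the 27 flattens low beta levels, so the count is not read as a trait of the 27. Only *Pde10a* among them was also higher past 1.5-fold in beta cells of both genotypes (1.76 and 2.18), and only *Zim1* was lower there past 1.5-fold in both. In delta cells 7 of the 27 were higher in both genotypes (1.67% of all kept genes were) and 17 in neither.

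Because the scale flattens ratios at low levels, the ratios were set side by side. The interval of the alpha ratio lay above that of the beta ratio in both genotypes for 16 of the 27. This held for all 9 genes with at least 1 CP10K in each of the 4 beta columns (*Cdh4*, *Fam20a*, *Ksr2*, *Pcdh15*, *Pde10a*, *Shb*, *Tns3*, *Usp29* and *Zdhhc14*), and for 4 of the 13 under 0.5 CP10K in all 4 (*Ncam2*, *Pdgfd*, *Spsb1* and *Stk32b*). In 7 of the 27 the beta ratio itself was above 1 with its interval in both genotypes. *Fbp1* is the clearest case: its beta level went from 0.0266 to 0.385 CP10K in WT and from 0.0571 to 0.504 in the mutant, ratios of 14.5 (7.12 to 34.3) and 8.81 (4.75 to 18.1), against 14.3 and 25.2 in alpha cells. The alpha and beta intervals of its ratio overlapped in both genotypes, so that it was apart from beta cells in level and in difference but not beyond counting error in ratio.

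*Zim1*, an imprinted zinc finger gene, moved in opposite directions. In alpha cells it was 6.44 CP10K without treatment, 6.802 with Ex-4 and 13.8 with FSK in WT, against 6.604, 7.02 and 11.6 in the mutant. In beta cells it was 3.34 in WT CON, 0.831 in WT FSK, 3.66 in mutant CON and 1.32 in mutant FSK. The differences were 1.00 in WT and 0.73 in the mutant in alpha cells and -1.24 and -1.01 in beta cells.

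Its neighbours in the *Peg3* domain on chromosome 7 shared this pattern only in part. *Usp29* was higher in alpha cells of both genotypes (0.68 and 0.88) and at -0.32 and 0.09 in beta cells. *Peg3* was at 0.76 in WT and -0.19 in the mutant in alpha cells and -1.46 and -1.98 in beta cells. It thus moved in opposite directions past 1.5-fold in WT, and in the mutant only beta cells passed. *Peg10*, an imprinted gene of chromosome 6, was 0.572 and 2.41 CP10K in WT CON and FSK and 0.864 and 2.19 in mutant CON and FSK, and it was at or under 0.0519 CP10K in these columns of beta cells. With Ex-4 it was listed at 0 in every cell type of WT and was 0.756 CP10K in mutant alpha cells.

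*Pcdh15*, a protocadherin, was 2.003 CP10K without treatment, 1.44 with Ex-4 and 5.64 with FSK in WT, against 1.21, 1.31 and 3.105 in the mutant. Its beta differences were -0.51 and -0.13, the first toward lower values. *Ncam2*, a neural adhesion molecule, was 0.334 CP10K without treatment, 0.199 with Ex-4 and 1.63 with FSK in WT, against 0.309, 0.214 and 2.18 in the mutant and at most 0.139 CP10K in the FSK and CON columns of beta cells. *Rgs6*, which speeds the inactivation of G proteins, had differences of 1.16 in WT and 1.12 in the mutant and was at most 0.0651 CP10K in those beta columns. Both *Pcdh15* and *Ncam2* were higher in each delta column than in any alpha column. After FSK the delta level of *Pcdh15* rose from 21.7 to 46.4 CP10K in WT and from 10.1 to 33.5 in Med14 S983A islets. That of *Ncam2* rose from 13.1 to 18.5 and from 3.32 to 12.6, with differences of 0.47 (WT) and 1.65 (mutant). *Rgs6* was at most 0.206 CP10K in the FSK and CON columns of delta cells.

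Genes of granule docking and of adhesion were also among the 27. *Sytl2*, a synaptotagmin-like protein that tethers secretory granules in alpha cells, was 1.96 CP10K without treatment, 1.13 with Ex-4 and 4.64 with FSK in WT, against 1.01, 0.794 and 4.47 in the mutant. In beta cells it was 0.0033 and 0.0097 CP10K in WT CON and FSK and 0.0779 and 0.117 in the mutant. Its WT beta ratio of 2.92 (0.235 to 153) had an interval that overlapped that of alpha cells. *Zdhhc14*, a palmitoyltransferase, had differences of 1.00 in WT and 1.63 in the mutant in alpha and 0.15 and 0.41 in beta cells. *Fam20a*, a pseudokinase of the secretory pathway, was at 1.01 in WT and 1.01 in the mutant in alpha and -0.10 and 0.11 in beta cells, although its gene overlaps *Prkar1a* on the annotation. *5330439M10Rik* was 0.31005 CP10K without treatment, 0.155 with Ex-4 and 2.15 with FSK in WT, against 0.222, 0.139 and 2.28 in the mutant, with beta differences of 0.34 and 0.43. Its beta FSK to CON ratios were 3.56 (2.43 to 5.33) in WT and 3.76 (2.48 to 5.89) in the mutant. In alpha cells they were 6.94 (3.76 to 13.8) and 10.3 (6.30 to 17.7). The alpha and beta intervals overlapped in WT and were apart in the mutant.

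**Figure D4:**
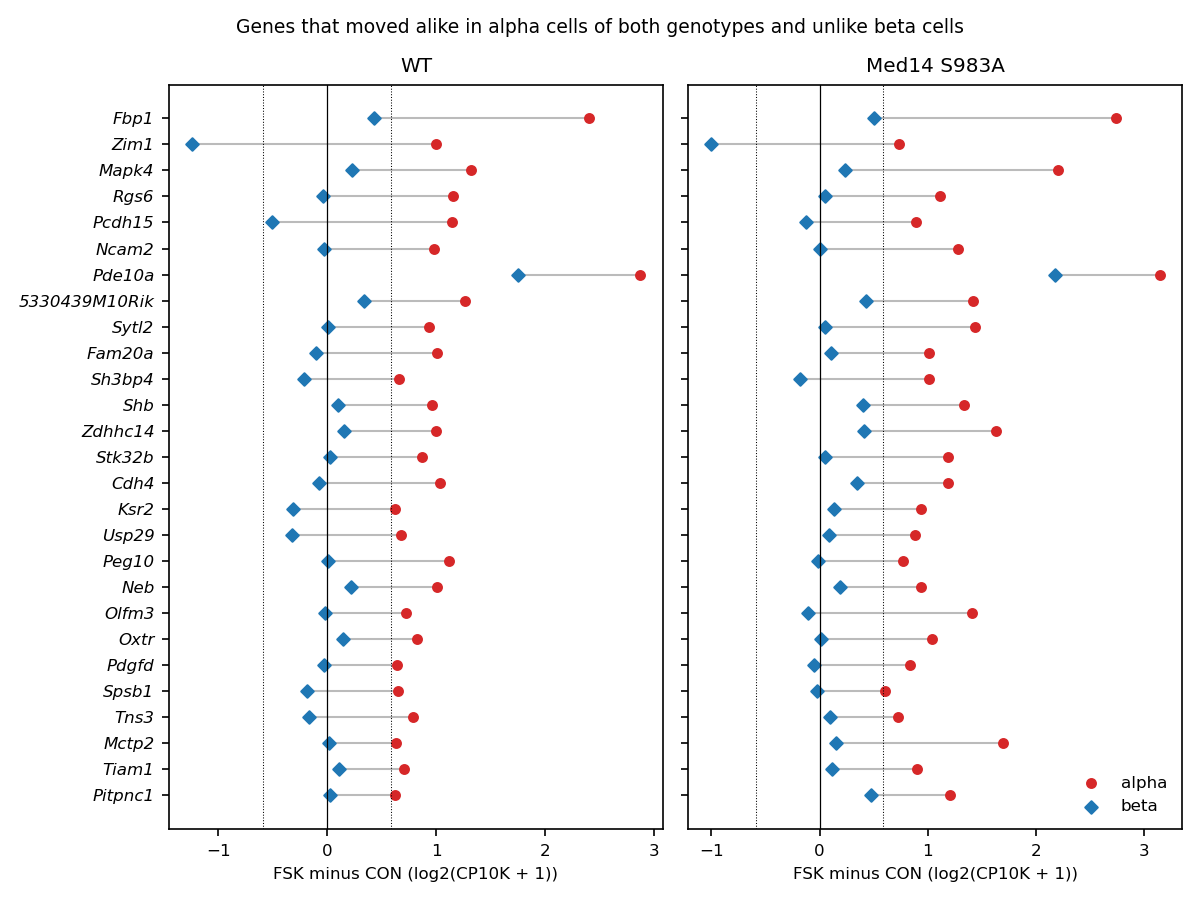
FSK minus CON on the log2(CP10K + 1) scale (horizontal axis) for the 27 higher genes unlike beta cells (vertical axis), in WT (left) and Med14 S983A (right), with alpha cells as red circles, beta cells as blue diamonds and dotted lines at 1.5-fold. *Zim1* has its alpha and beta points on opposite sides of 0 in both genotypes, and *Pde10a* has both points past the line.

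In the converse direction, 66 genes of 10093 kept in beta cells were higher there in both genotypes and exceeded the alpha difference by at least 0.58 in each, and 16 were lower. *Gnas* was 2.09 and 12.7 CP10K in WT beta cells and 3.15 and 15.8 in mutant beta cells. In alpha cells it was 25.3 CP10K without treatment, 17.5 with Ex-4 and 19.97 with FSK in WT, against 20.7, 17.9 and 20.8 in the mutant, so that it was high in all 6 alpha columns and did not pass the threshold. *Scn3a*, a sodium channel subunit, was at -0.56 in WT and -0.15 in the mutant in alpha cells and at 1.77 and 1.71 in beta cells. *Vegfa*, lower in beta cells of both genotypes (-0.98 and -1.89), was at 0.41 in WT and -0.91 in the mutant in alpha cells.

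Glucagon and the alpha cell program were examined next. *Gcg* was 85.8 (83.1 to 88.7) CP10K in WT CON and 115 (111 to 119) in WT FSK, and 35.2 (33.96 to 36.6) and 92.9 (90.8 to 95.1) in the mutant, with 34.1 and 33.8 in the Ex-4 columns. The 2 FSK columns were the highest of the 6, and the difference passed 1.5-fold in the mutant alone (0.41 and 1.37). Of 11 kept alpha identity genes, *Irx2* was higher (0.82 and 0.48) and *Slc7a2* lower in WT, and *Gcg* and *Ttr* (0.29 and 1.40) were among those higher in the mutant. None passed in both genotypes.

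Genes of hormone processing and release showed single changes and none in common. Of 13 kept granule genes, *Chgb* (0.64 and 0.25) and *Ptprn* (0.92 and 0.15) were higher in WT, while *Pcsk2*, the convertase that makes glucagon from its precursor (0.42 and 0.90), and *Pam*, an amidating enzyme (0.10 and 1.16), were higher and *Chga* (0.19 and -1.32) lower in the mutant. Of 18 exocytosis genes *Unc13a* (0.59 and 0.23) was higher in WT and *Rab27a* (0.53 and 0.65) in the mutant. Of 20 ion channel genes *Kcnb2* (-0.64 and 0.27), *Kcnd3* (-0.69 and -0.36) and *Kcnk3* (-0.61 and 0.00) were lower in WT and *Kcnma1* (-0.08 and 0.76) higher in the mutant. *Gipr*, the GIP receptor, was lower in the mutant (-0.31 and -1.07).

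Lists of other programs held few calls, as lists this short would at the shares of all kept genes. Of 18 kept genes of protein folding and stress in the endoplasmic reticulum, *Hsp90b1* (0.71 and -0.26) was higher in WT and none passed in the mutant. None of the 9 kept pan-endocrine factors passed in either genotype. *Etv1*, which is also on the list of PP cell genes, was higher in both (0.68 and 1.47), while *Ppy*, the PP cell hormone, was at 0.37 in WT and -0.12 in the mutant. Of 12 kept beta identity genes only *Slc30a8* passed, lower in WT (-1.07 and -0.16). *Med14* was at 0.835 (0.581 to 1.16) CP10K in WT CON and 0.7795 (0.483 to 1.19) in WT FSK, and 0.6295 (0.469 to 0.828) and 0.738 (0.5604 to 0.954) in the mutant, with overlapping intervals in each genotype.

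Other genes passed 1.5-fold in 1 genotype and in neither direction in the other. In WT alone 42 genes were higher and 100 lower, and in the mutant alone 211 were higher and 74 lower. The 211 had median differences of 0.12 (WT) and 0.75 (mutant), and 145 lay lower past 1.5-fold in mutant CON than in WT CON, against 5.44% of all kept genes. The 100 had medians of -0.72 (WT) and -0.03 (mutant), and 66 lay lower past 1.5-fold in mutant CON than in WT CON. Each set was chosen on a difference that contains 1 of these CON columns, so that nothing is read from these counts. The median lengths of the sets were 197470 and 175852 bases.

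*Peak1*, a pseudokinase that organises the cytoskeleton, was 0.429 (0.254 to 0.678) CP10K in WT CON and 8.43 (7.37 to 9.597) in WT FSK, and 0.728 (0.554 to 0.939) and 0.458 (0.321 to 0.634) in the mutant. WT FSK alone stood out of the 6 alpha columns. The same was the case in beta (2.03 and -0.40) and delta cells (1.97 and -0.32). Outside the endocrine cells mutant FSK was above mutant CON. Mutant levels went from 11.4 to 22.9 CP10K in muscle cells and from 3.63 to 24.2 in neurons. They went from 4.90 to 6.51 in endothelial cells, 4.94 to 10.3 in macrophages and 5.03 to 9.75 in ductal cells, with overlapping intervals. *Peak1* was one of 9 kept genes on a list that the study drew from these nuclei as induced by FSK through Med14 in beta cells, so the list is not independent evidence. None of the other 8 was higher past 1.5-fold in either genotype, and *Astn2* was lower in WT (-0.77 and 0.55).

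*Rn7sk*, the noncoding RNA that holds the elongation kinase P-TEFb inactive, was 1.43 CP10K without treatment, 3.63 with Ex-4 and 10.7 with FSK in WT, against 3.21, 6.41 and 2.66 in the mutant. WT FSK was the highest of the 6 columns, and mutant Ex-4 the next. In beta cells its differences were 1.72 and -0.89, and in delta cells 1.05 and -0.87. WT FSK was also above WT CON outside the endocrine cells. Levels went from 1.198 to 11.2 CP10K in macrophages, 1.39 to 7.56 in endothelial cells and 1.95 to 7.86 in muscle cells. Their WT CON counts were 5, 17 and 5. Pancreatic ductal cells alone had a lower level (6.57 and 2.32), on counts of 1 and 2. The rise in WT FSK was thus not confined to endocrine cells, and its cause was not tested.

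In 7 genes the genotypes moved past 1.5-fold in opposite directions. *Cdk8*, the kinase of the Mediator kinase module, was 21.2 CP10K without treatment, 62.6 with Ex-4 and 73.02 with FSK in WT, against 105, 87.7 and 54.9 in the mutant. *Gm19951* was 10.3 CP10K without treatment, 32.8 with Ex-4 and 18.7 with FSK in WT, against 71.6, 110.5 and 17.3 in the mutant. Both are among the 8 genes on the list linked to ribosomal RNA, and where their reads come from was not tested. Of these 8 genes 2 were higher in WT, 6 were lower in the mutant, and the median was 0.25 and -1.12. *Kif12*, a kinesin, was at 0.65 in WT and -0.64 in the mutant. In beta cells the differences were 0.96 and -1.50 for *Cdk8*, -0.10 and -2.64 for *Gm19951* and 0.02 and -1.19 for *Kif12*. In delta cells they were 0.49 and -1.63, -0.44 and -2.29, and -0.44 and -1.47, in the same order.

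*Nxph1*, a ligand of neurexins, was 34.7 CP10K without treatment, 7.05 with Ex-4 and 13.8 with FSK in WT, against 4.65, 4.6000 and 10.4 in the mutant. WT CON was the highest column and mutant CON among the lowest. *Prkg1*, *Ppp2r2b* and *Rgs7bp* had the same arrangement. *Kctd16*, an auxiliary subunit of GABA-B receptors, was 4.72 CP10K in WT CON and between 0.4197 and 0.8198 in the other 5 columns.

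**Figure D5:**
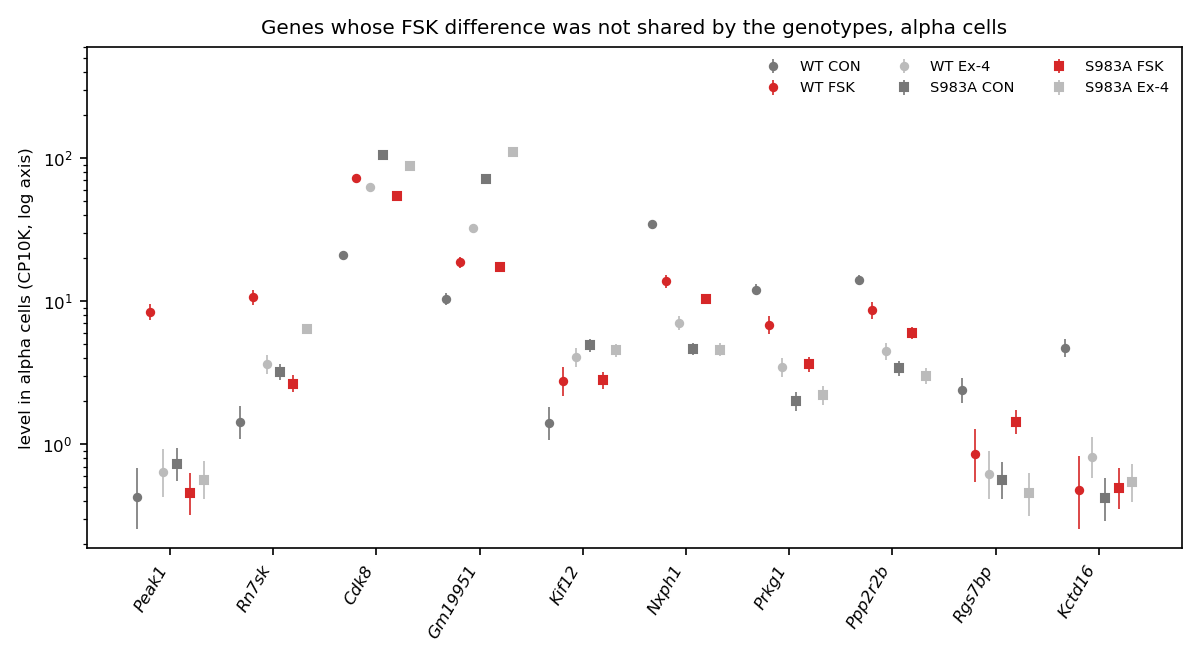
Levels in CP10K on a log axis in the 6 alpha cell columns for 10 genes whose FSK difference was not shared by the genotypes, with WT as circles and Med14 S983A as squares, FSK in red, CON in dark grey and Ex-4 in light grey, and exact Poisson intervals as bars. WT FSK alone is high for *Peak1*, and WT CON alone is high for *Kctd16*.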

How the data were processed

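Nuclei of cultured islets were profiled with combinatorial barcoding. The authors processed reads with split-pipe 1.4.0 against mm39, removed nuclei outside the 15th percentiles of counts and genes or with a high mitochondrial share, and integrated and annotated nuclei with Seurat 5.3.0. The deposited table holds natural log values, ln(1 + 10000 × count / column total), 1 per gene, condition and cell type. The sources used here do not say if raw or SCTransform-corrected counts were pooled. Column totals were recovered as the numbers that make all values whole (100% within 0.001 of a whole number). Differences were subtracted log values divided by the natural log of 2, with no pseudocount beyond the 1 in that formula. Genes were kept at or above the 40th percentile of their mean over 6 alpha columns (0.0821 CP10K).

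Named genes were, among kept genes at or above the median level, the 10 with the largest shared difference in each direction, 8 in each direction unlike beta cells, 5 in each direction past 1.5-fold in 1 genotype with the other on the opposite side of 0, 5 in each direction exceeding alpha cells in beta cells, up to 10 moving oppositely past 1.5-fold, members of 24 gene lists, and *Med14*. The rest of the 82 higher and 7 lower genes, *Fbp2*, *Peg3*, *Man1a* and *Fmn2* were named after their values were seen. Members, lists and tests were chosen with earlier results of these data known. Ratio intervals were exact binomial (95%). Numbers of nuclei were not analysed here, and a few genes that met these rules are not reported here. The calculation was first tested on simulated counts. Alternatives were the filter, threshold, pseudocount, scaling, gene length and level in other cell types. Lengths and promoters were taken from the GENCODE M39 annotation of GRCm39, where 16531 names matched 1 gene and 831 had no such match. Software was scipy 1.17.1, statsmodels 0.14.6 (lowess), pandas 2.3.3 and numpy 2.4.6 in Python 3.11.15.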

Additional observations from a re-analysis of the deposited data

Results flagged for a closer look

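In 7 genes, WT and Med14 S983A alpha cells moved past 1.5-fold in opposite directions after FSK, on the log2(CP10K + 1) scale. The difference between genotypes was not tested, since each genotype has 1 pool for each condition. *Rgs7bp*, which anchors regulators of G protein signaling to the membrane, was at -0.87 in WT and 0.64 in the mutant. *Ppp2r2b*, a regulatory subunit of protein phosphatase 2A, was at -0.64 in WT and 0.67 in the mutant, *Prkg1*, the cGMP-dependent kinase, at -0.74 in WT and 0.63 in the mutant, and *Nxph1* at -1.26 in WT and 1.01 in the mutant. In these 4 genes WT CON was the highest of the 6 alpha columns. *Kif12* was at 0.65 in WT and -0.64 in the mutant, *Cdk8* at 1.74 in WT and -0.92 in the mutant and *Gm19951* at 0.80 in WT and -1.99 in the mutant. In these 3 genes WT CON was the lowest of the 6 alpha columns. In beta cells *Cdk8* also moved in opposite directions past 1.5-fold (0.96 in WT and -1.50 in the mutant). *Gm19951* (-0.10 and -2.64), *Kif12* (0.02 and -1.19), *Nxph1* (0.04 and 0.73) and *Prkg1* (0.23 and 1.16) passed there in the mutant alone. *Ppp2r2b* (0.12 and 0.33) and *Rgs7bp* (-0.03 and 0.20) passed there in neither genotype.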

How the results depend on the processing

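No paired analysis was possible because each condition has 1 pooled column and the sublibraries each hold all conditions. The balance of higher and lower genes turned in WT with each pseudocount and over genes highest in alpha cells, and in the genes shared by the genotypes with the lowest pseudocount. The counts below are in the order WT higher, WT lower, mutant higher, mutant lower, both higher, both lower, and unlike beta cells higher and lower, reported as 127, 111, 297, 84, 82, 7, 27 and 1. Taking log2 of CP10K plus 0.01 times the median level gave 1434, 2823, 2301, 1366, 568, 599, 246 and 96, plus 0.1 times the median gave 1119, 2511, 2037, 1143, 462, 443, 184 and 69, and plus 1 times the median gave 347, 647, 696, 259, 151, 41, 51 and 7. With a 2-fold threshold they were 35, 17, 91, 19, 23, 0, 3 and 0. Over genes at least as high in alpha as in beta, delta and PP cells, the first 7 were 30, 55, 92, 35, 20, 3 and 10. With a lowess trend on length removed there were 71 lower in WT, 197 higher in the mutant and 2 lower and unlike beta cells. Rescaling without ribosomal RNA linked and mitochondrial genes gave 147 lower in the mutant, 13 lower in both and 2 lower and unlike beta cells, and setting the median difference to 0 gave 2 of the latter. The share of higher calls was 53.4% in WT, 33.7%, 30.8% and 34.9% with the 3 pseudocounts, 64.8% with the median at 0 and 67.6% without the length trend. In the mutant it was 78.0%, 62.7% and 64.1% with the first 2 pseudocounts, 63.0% after rescaling and 61.8% without the length trend. The median of all kept genes was -0.19 and -0.17 in WT with the first 2 pseudocounts. Chosen after seeing the data, a requirement that both FSK columns pass 1.5-fold from each of the 4 other alpha columns left 50 higher and 1 lower in both, and 15 higher and 0 lower unlike beta cells. Intervals of the alpha and beta ratios apart in both genotypes, also chosen afterwards, left 16 of the 27. All other counts, including those without a filter, with a filter at the 75th percentile, with at least 20 counts and without genes listed at 0 over a condition, stayed within 1.5 times those reported. Counting error limits genes near the filter, and with 1 pool a condition the spread between islet preparations is unknown.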
